A study of Mus musculus with 18 samples.

Results

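CD4 T cells of the small intestine that carried neither CD8α nor the Foxp3 reporter (single positive, SP) were compared between 2 tissue sites, the epithelium (intraepithelial lymphocytes, IEL) and the lamina propria beneath it (LP). The comparison set 3 IEL SP libraries against 3 LP SP libraries, 6 of the 18 libraries sequenced, over every gene with a deposited value of at least 10 in 3 or more of these 6. Of the 38392 genes listed, 13924 met that rule, and no measure of change was used to choose them. A gene below 10 in all 3 libraries of 1 site met it only with at least 10 in all 3 of the other. All donor T cells came from C57BL/6 mice labelled TNa TNb RAG1-/- Foxp3GFP, made by cloning the nucleus of 1 regulatory T cell, so that without RAG1 every cell carried the same T-cell receptor. They were sorted as CD4+ CD8α- Foxp3- before transfer into C57BL/6 hosts labelled TCRa-/- TCRb-/-, which lack their own αβ T cells but can still make B cells and γδ T cells, and they were recovered 6 weeks later. The other groups were CD4+CD8α+ cells (double positive, DP) and Foxp3+ regulatory cells (TR) of each site, 3 libraries per group, from the same donors and hosts. IEL DP and LP DP served here as a second comparison of the sites, LP TR entered only the estimate of the spread, and IEL TR entered only an alternative fit. The labels call the 3 libraries of a group biological replicates without naming their animals. The p-values of the main fit therefore rest on the spread between libraries within groups, pooled over 15 libraries in 5 groups, and not on a known number of animals.

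Intraepithelial T cells lie between the epithelial cells of the gut, held there in part by the integrin αEβ7, which binds E-cadherin. They are known for granzymes, natural killer (NK) receptors and a high threshold of activation. CD4 T cells of the lamina propria are known for helper functions, with costimulatory receptors and cytokines such as interferon-γ and IL-22. CD4 T cells that settle in the epithelium can lose the helper regulator ThPOK, gain Runx3 and turn on CD8α. The SP cells of the epithelium are the ones that have not taken the last of these steps.

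The values are normalised counts, read counts times 1 factor per library as the authors deposited them. The 6 libraries held between 5211828 and 7984462 reads. The genes of the T-cell identity list were present at both sites. Lck, the kinase that starts T-cell receptor signalling, had 6456, 7644 and 6527 in IEL SP libraries, against 7045, 7767 and 6658 in LP SP libraries. Cd3e, a chain of the receptor complex, had 1289, 1213 and 1159 in IEL SP libraries, against 958, 1526 and 1247 in LP SP libraries. Of the 13 identity genes, Cd3g was higher in IEL SP (log2 difference 0.48) and Cd2, an adhesion receptor, lower (-0.59), and the 11 others did not pass. Cd4, a sort marker, had 733, 733 and 769.5 in IEL SP libraries, against 717, 1341 and 1044 in LP SP libraries, and the difference of -0.43 ± 0.23 (adjusted p = 0.26) did not pass. Cd8a, excluded by the sort, had 113, 14.9 and 16.1 in IEL SP libraries, against 22.3, 10.4 and 12.8 in LP SP libraries, with IEL SP library 1 apart from the other 5. Cd8b1, which encodes CD8β, had 49.1, 53.2 and 72.1 in IEL SP libraries, against 85.5, 82.8 and 76.5 in LP SP libraries. Foxp3, also excluded by the sort, had 7.01, 18.1 and 39.9 in IEL SP libraries, against 0, 2.99 and 10.4 in LP SP libraries. Neither Cd8a (1.03, adjusted p = 0.293) nor Foxp3 (2.37, adjusted p = 0.114) passed the test, and the groups overlapped in both. For comparison, Cd8a had 4879, 6339.8 and 6444 in IEL DP libraries, against 3744, 3411 and 3364 in LP DP libraries.

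Site was the main axis among the 6 libraries. The first principal component held 41.74% of the variance and put IEL SP libraries between 42.24 and 51.25 and LP SP libraries between -51.73 and -44.28. The second held 17.98% and set LP SP library 1 at 59.97, apart from LP SP libraries 2 and 3 at -37.99 and -26.2 and from IEL SP libraries between -3.559 and 7.037. On a log2 scale after adding 1, in a limma model over 15 libraries, 661 genes were higher in IEL SP (4.75% of those tested) and 872 were lower (6.26%), at an adjusted p under 0.05. Genes past that threshold are said to be called. Another 12391 were not called, and the median difference over all genes was 0.02. Of the lower genes 207 differed by at least 4-fold, and of the higher ones 87. The libraries of the sites did not overlap in 650 of the 661 higher and 864 of the 872 lower genes. A lack of overlap thus came with nearly every call and adds little to it.

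**Figure D1:**
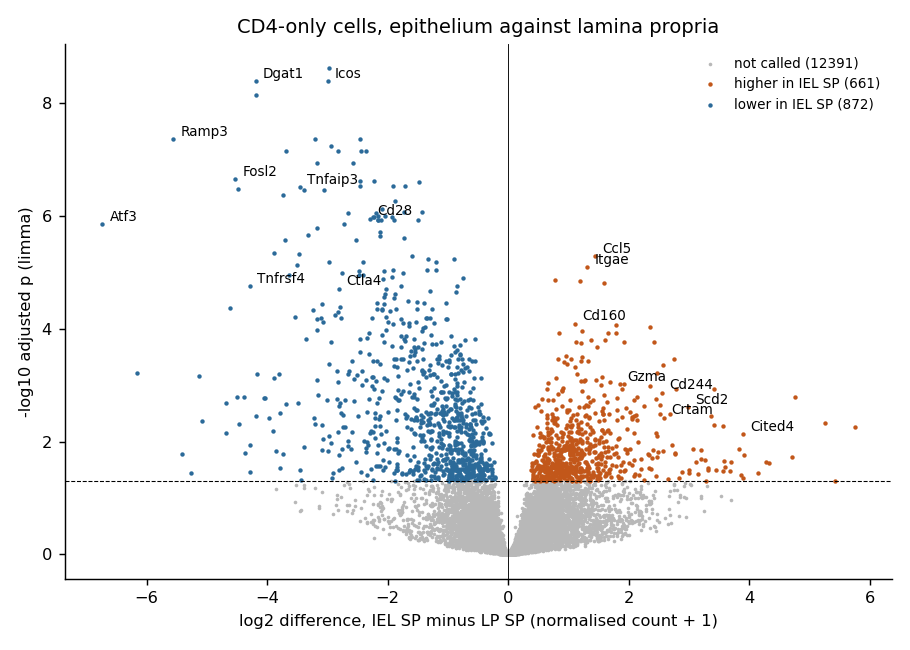
Each point is 1 of 13924 genes. The x axis gives the log2 difference of IEL SP minus LP SP after adding 1 to the normalised count, and the y axis gives minus log10 of limma's adjusted p with the threshold of 0.05 as a dashed line. The lower genes (872, blue) reach further from 0 than the higher ones (661, orange), with Atf3 at -6.73 and Icos and Dgat1 near the top.

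With the 6 SP libraries alone 576 of the 872 lower and 340 of the 661 higher genes were called again, and 493 and 202 were called there and in each of 6 fits that left out 1 library. Of the 150 genes listed for naming 139 were called, which the rule for naming largely fixed. Of these 139, 57 kept the call in each of 22 alternative settings. Leaving out 1 library gave between 996 and 1271 called genes in place of 1533, the lowest without IEL SP library 3 (344 higher and 652 lower), with 1219 without LP SP library 1. Where a gene lost its call without a library, the library is named in what follows with the range of limma's adjusted p over the 6 such fits. In whole reads recovered from the values, edgeR called 1507 genes (570 higher, 937 lower). In IEL SP, 3 predicted genes (Gm26870, Gm10800 and Gm10717) took 6.27 to 9.94% of each library's total, against 1.72 to 6.1% in LP SP, and their part in these counts was not tested. Scaling every library to equal totals instead gave 775 higher and 731 lower. Because the libraries are bulk, fewer cells of a kind and less RNA per cell cannot be told apart in any of the values.

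The largest differences were decreases in the epithelium. Changes were ranked among called genes that averaged at least 50 in the higher group and did not overlap between the sites. The lack of overlap was thus a condition of the ranking. Predicted genes, receptor segments and markers of other cells were left out. The 15 largest decreases ran from 18.01-fold to 106.43-fold lower on the scale after adding 1, which shrinks the fold of genes near 0. In the 6-library fit 15 of 15 were called again, and with epithelial and myeloid marker sums in the model 11 were. Atf3 (ENSMUSG00000026628, chromosome 1, 191170296 to 191218039 on GRCm38), a stress-induced transcription factor, had 0, 2.13 and 0.85 in IEL SP libraries, against 209.7, 119 and 276 in LP SP libraries. Dusp4, a phosphatase that switches off MAP kinases, had 2.00, 0 and 0.85 in IEL SP libraries, against 105, 116 and 161 in LP SP libraries. Ramp3, which shapes the calcitonin-like receptor into a receptor for adrenomedullin and CGRP, had 21.03, 20.2 and 11.9 in IEL SP libraries, against 844, 949 and 792 in LP SP libraries. Atf3 and Dusp4 were near 0 in every IEL SP library, so the filter alone required at least 10 in every LP SP library. Ramp3 was low but above the filter value in every IEL SP library. In this order the log2 differences were -6.73 ± 0.51 (adjusted p = 1.4e-06), -6.16 ± 0.91 (adjusted p = 0.000616) and -5.56 ± 0.28 (adjusted p = 4.34e-08). Dgat1, the last enzyme of triglyceride synthesis, was abundant in LP SP. It had 409.6, 608 and 451 in IEL SP libraries, against 7980.0, 8853 and 9715 in LP SP libraries, a difference of -4.19 ± 0.17 (adjusted p = 4.09e-09). Vps37b, a subunit of the ESCRT-I sorting complex, had 143, 89.4 and 165 in IEL SP libraries, against 2026, 3124 and 3799 in LP SP libraries. Ifrd1, a transcriptional coregulator, had 374, 398 and 433 in IEL SP libraries, against 7313, 6457 and 8148 in LP SP libraries. The log2 differences were -4.48 for Vps37b and -4.18 for Ifrd1.

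Other members of the largest decreases encode secreted or surface proteins of immune cells. Cxcl10, a chemokine, had 12.02, 68.1 and 31.4 in IEL SP libraries, against 387, 902 and 606 in LP SP libraries (-4.28 ± 0.96, adjusted p = 0.0114). Cd83, a surface protein of activated lymphocytes and dendritic cells, had 3.00, 1.06 and 5.09 in IEL SP libraries, against 162, 54.5 and 91.6 in LP SP libraries (-4.67 ± 0.97, adjusted p = 0.00698). Il1r2, the decoy receptor of IL-1, had 2.00, 0 and 1.70 in IEL SP libraries, against 153, 43.3 and 11.6 in LP SP libraries, and LP SP library 1 lay well above the other LP SP libraries. Gramd3 (-5.14) and the cochaperone gene Sgtb (-5.07) were lower too, as was Fabp5l2 (-4.62), a near copy of Fabp5 whose reads may have been split, so its value is uncertain. Cxcl10 lost its call without IEL SP library 1 (adjusted p 0.0139 to 0.054). With epithelial and myeloid marker sums in the limma model, Cxcl10 (adjusted p = 0.28), Cd83 (0.0837), Il1r2 (0.102) and Sgtb (0.121) lost their calls. The part of other cells in these genes was not tested.

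By the same rule the 15 largest increases in IEL SP ran from 6.74-fold to 14.89-fold on the same scale. In the 6-library fit 10 of them were called again, and with epithelial and myeloid marker sums in the model 3 were. Scd2, a desaturase that makes monounsaturated fatty acids, had 291, 126 and 216 in IEL SP libraries, against 15.2, 15.7 and 59.1 in LP SP libraries (2.98 ± 0.53, adjusted p = 0.00248). Apol9a, an apolipoprotein L gene with a near copy that may share its reads, had 399, 489 and 465 in IEL SP libraries, against 36.3, 134 and 58.0 in LP SP libraries (2.75 ± 0.38, adjusted p = 0.000345). Cited4, a coactivator that binds CBP and p300, had 117, 117 and 137 in IEL SP libraries, against 1.17, 15.7 and 15.1 in LP SP libraries (3.90 ± 0.82, adjusted p = 0.00743). Nckap1, a subunit of the WAVE complex that drives actin branching, had 50.1, 50.04 and 73.8 in IEL SP libraries, against 7.03, 1.49 and 6.95 in LP SP libraries (3.42 ± 0.55, adjusted p = 0.00116). These 4 kept their calls in every fit without 1 library. The zinc finger gene Zfp273 (2.78) and the Ras-association gene Rassf7 (3.37) also kept their calls in every fit without 1 library. The other 9, with log2 differences between 2.77 and 3.89, did not. Mmp11 lost its call without IEL SP library 1, 2 or 3 or LP SP library 1 or 2 (adjusted p 0.00859 to 0.151), as did Exog without IEL SP library 1 or 2 or LP SP library 1 or 2 (adjusted p 0.00795 to 0.078) and Dtwd1 without IEL SP library 1, 2 or 3 or LP SP library 1 or 3 (adjusted p 0.00544 to 0.123). Mutyh lost its call without IEL SP library 1, 2 or 3 or LP SP library 1 (adjusted p 0.0348 to 0.105), as did Det1 without IEL SP library 1, 2 or 3 or LP SP library 1 or 3 (adjusted p 0.00387 to 0.0947) and Tefm without IEL SP library 1, 2 or 3 or LP SP library 2 (adjusted p 0.00591 to 0.0703). Zfp790 lost its call without IEL SP library 1 or LP SP library 1 or 2 (adjusted p 0.0026 to 0.0622), as did Ppcs without IEL SP library 2 or LP SP library 1 or 3 (adjusted p 0.00952 to 0.0627) and Mtx3 without IEL SP library 2 or 3 or LP SP library 3 (adjusted p 0.0211 to 0.0718). Mmp11 encodes a matrix metalloproteinase, Exog a mitochondrial endonuclease, Mutyh a DNA repair glycosylase, Tefm a mitochondrial transcription elongation factor and Ppcs an enzyme of coenzyme A synthesis.

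The immediate early genes, which cells switch on within minutes of a stimulus and which tissue dissociation can also induce, were the list with the largest share of lower members in IEL SP. Of 25 tested, 16 were lower (64.0%, against 6.26% of all genes), 0 were higher, and the median difference was -1.08, against 0.02 over all genes. Its summed normalised count was 23599 to 29140 in IEL SP and 66925 to 83393 in LP SP. The labels do not describe how cells of each site were released from the tissue, so site and isolation cannot be told apart for these or any other genes of the comparison. In the fits that left out 1 library, 14 to 16 members were called.

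Feedback inhibitors of NF-κB were among the lower members. Tnfaip3 (ENSMUSG00000019850, chromosome 10, 19000910 to 19015657), which encodes A20, had 942, 1454 and 742 in IEL SP libraries, against 9682, 12001 and 11487 in LP SP libraries, a difference of -3.45 ± 0.22 (adjusted p = 3.1e-07). Nfkbia (ENSMUSG00000021025, chromosome 12, 55489410 to 55492647), the inhibitor IκBα, had 982, 1177 and 947 in IEL SP libraries, against 5064, 6251 and 5897 in LP SP libraries (-2.47 ± 0.23, adjusted p = 1.1e-05). Nfkbiz, the related nuclear protein IκBζ, had 458, 598 and 444 in IEL SP libraries, against 2647, 2819.8 and 2814 in LP SP libraries (-2.48 ± 0.23, adjusted p = 9.25e-06). Every LP SP library lay several times above every IEL SP library in all 3. Phosphatases of MAP kinases showed the same order. Dusp1 (ENSMUSG00000024190, chromosome 17, 26505590 to 26562128) had 481, 669.7 and 584 in IEL SP libraries, against 1927, 2718 and 3297 in LP SP libraries (-2.17 ± 0.23, adjusted p = 3.56e-05). Dusp5 had 106, 159 and 182 in IEL SP libraries, against 1344, 1652 and 1624 in LP SP libraries (-3.39 ± 0.22, adjusted p = 3.43e-07). Dusp2 had a smaller difference of -0.97 ± 0.28 (adjusted p = 0.0365).

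Among the AP-1 transcription factors the sizes differed widely. Fosl2 had 127, 104 and 125 in IEL SP libraries, against 2540.1, 1939 and 4226 in LP SP libraries (-4.53 ± 0.27, adjusted p = 2.22e-07). Junb had 5607, 7643 and 5740.4 in IEL SP libraries, against 15072, 21280.5 and 19729 in LP SP libraries (-1.56 ± 0.19, adjusted p = 0.000153). Fos had 2495, 2434 and 2086 in IEL SP libraries, against 3501, 4054 and 4760.2 in LP SP libraries, a difference of only -0.80 ± 0.16 (adjusted p = 0.00613), and Jun did not pass (-0.18, adjusted p = 0.8). Thus Fosl2 libraries lay far apart between the sites, while for Fos the highest IEL SP library (2495) lay close to the lowest LP SP library (3501). Fosb (-1.08) and Jund (-1.11) were lower as well. The nuclear receptor genes Nr4a1 (-2.79 ± 0.30, adjusted p = 4.18e-05) and Nr4a3 (-3.08 ± 0.33, adjusted p = 3.68e-05), which T-cell receptor signals induce, fell in IEL SP, as did Klf6 (-1.54) and the antiproliferative gene Btg2. Nr4a2 (-1.01, adjusted p = 0.114), Egr1 (-0.36, adjusted p = 0.448), Egr2 (-0.10, adjusted p = 0.967) and Zfp36 (-0.77, adjusted p = 0.117) did not pass. Dusp2 lost its call without any 1 of the 6 libraries (adjusted p 0.0551 to 0.113), as did Fosb without IEL SP library 3 or LP SP library 3 (adjusted p 0.017 to 0.0566).

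The promoters of 3 lower members, feedback inhibitors of NF-κB or MAP kinases, are shown as examples. They were chosen because each holds a searched motif, so they do not stand for the list. RefSeq promoter windows on GRCm38.p6, from 250 bases before to 50 after the first listed start, were found for 15 of the 16 lower members. Below, the 250 bases before the start of 3 of them are given 5′ to 3′ on the gene's strand, with motif matches on either strand in capitals, for Tnfaip3 (chr10:19015411-19015660 on the minus strand), Nfkbia (chr12:55492648-55492897 on the minus strand) and Dusp1 (chr17:26508473-26508722 on the minus strand).
Tnfaip3: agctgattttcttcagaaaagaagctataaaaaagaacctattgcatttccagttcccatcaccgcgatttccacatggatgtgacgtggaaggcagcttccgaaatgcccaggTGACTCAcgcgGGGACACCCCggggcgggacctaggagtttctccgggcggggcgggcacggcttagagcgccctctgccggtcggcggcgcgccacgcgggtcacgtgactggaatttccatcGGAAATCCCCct
Nfkbia: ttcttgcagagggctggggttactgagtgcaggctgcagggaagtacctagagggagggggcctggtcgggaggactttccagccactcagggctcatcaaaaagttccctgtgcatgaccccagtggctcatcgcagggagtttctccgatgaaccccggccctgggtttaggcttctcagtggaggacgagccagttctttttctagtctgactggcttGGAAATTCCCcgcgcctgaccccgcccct
Dusp1: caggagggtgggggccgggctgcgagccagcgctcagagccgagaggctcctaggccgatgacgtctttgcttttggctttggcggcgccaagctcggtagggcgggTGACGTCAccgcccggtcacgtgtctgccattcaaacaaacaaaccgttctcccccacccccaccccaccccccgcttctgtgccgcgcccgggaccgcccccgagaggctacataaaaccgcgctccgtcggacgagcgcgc
The first capitals in Tnfaip3 are the AP-1 motif TGACTCA, starting 136 bases before the start, and the others are the κB consensus, starting 125 and 12 bases before it. In Nfkbia the capitals are the κB consensus 29 bases before the start, and in Dusp1 the cyclic AMP response element TGACGTCA 143 bases before it. The matches do not overlap one another. Over the whole windows, the κB consensus was in 6 of the 15 promoters (Fos, Fosb, Fosl2, Nr4a1, Nfkbia and Tnfaip3) and in 4.35% of 27025 promoters of the same length. TGACGTCA was in 2 (Dusp1 and Btg2), against 1.88% of all, and TGACTCA was in 1, against 5.17% of all. A match of letters is not a bound site, and binding was not measured here.

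IEL SP cells carried much less RNA of the CD4 helper genes for costimulation. Of 14 members of the CD4 helper list, 7 were lower (50%), 1 was higher (7.14%) and the median was -1.81. Icos (ENSMUSG00000026009, chromosome 1, 60977927 to 61000320), the inducible costimulator, had 824, 928 and 870.5 in IEL SP libraries, against 7426, 6576 and 6942 in LP SP libraries, a difference of -3.00 ± 0.12 (adjusted p = 4.09e-09). Cd28 (ENSMUSG00000026012, chromosome 1, 60716800 to 60773359), the main costimulatory receptor, had 1192, 1079.6 and 915 in IEL SP libraries, against 5002, 5936 and 4749.8 in LP SP libraries (-2.30 ± 0.17, adjusted p = 1.13e-06). Tnfrsf4, which encodes OX40, had 56.1, 69.2 and 33.9 in IEL SP libraries, against 1081, 1183 and 809 in LP SP libraries (-4.29 ± 0.42, adjusted p = 1.76e-05). No library of one site came near the other site for these 3 genes. Satb1, a chromatin organiser, had 265, 299 and 246 in IEL SP libraries, against 1244, 1588 and 1203 in LP SP libraries (-2.30 ± 0.28, adjusted p = 0.000118). Cd40lg, the helper ligand for CD40, had 307, 343 and 369 in IEL SP libraries, against 710.0, 1223 and 979 in LP SP libraries (-1.48 ± 0.24, adjusted p = 0.00112). Tnfsf11, which encodes RANKL, fell as well (-2.13 ± 0.30, adjusted p = 0.000427), and Myb was lower at a low level (-2.98). The regulator genes Zbtb7b, Gata3 and Tox of the list did not pass. Zbtb7b, which encodes ThPOK, had 69.1, 49.0 and 83.1 in IEL SP libraries, against 101, 73.1 and 38.2 in LP SP libraries, with overlap and a difference of 0.00 ± 0.68 (adjusted p = 0.999), whose sign varied with the fit from -0.38 to 0.30. Gata3 stood at -0.83, adjusted p = 0.0789 and Tox at 0.45, adjusted p = 0.436. Cd6, a CD5-related receptor, was the member called higher (0.73). Cd6 lost its call without IEL SP library 1 or 3 or LP SP library 1 or 2 (adjusted p 0.024 to 0.187).

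**Figure D2:**
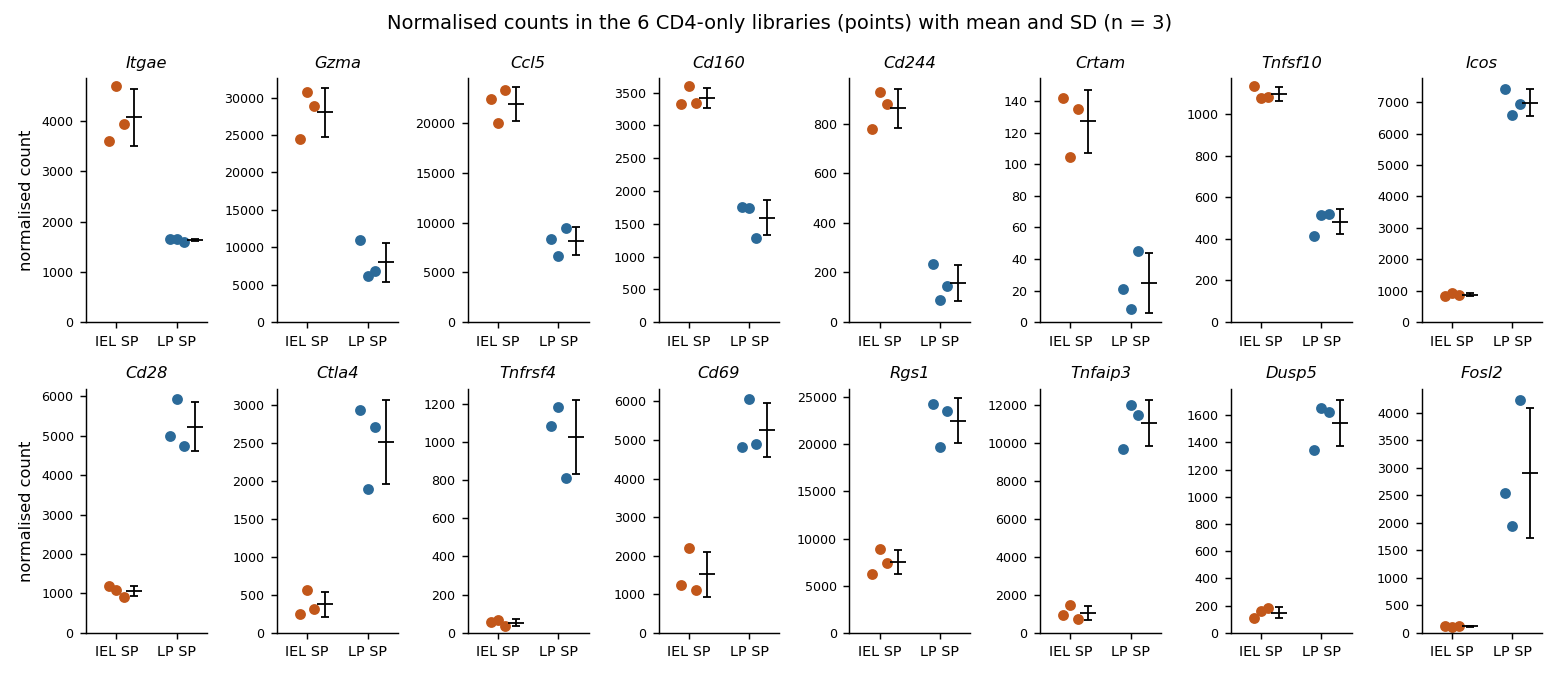
Normalised counts of 16 genes in the 6 SP libraries. Points are libraries, the black mark is the mean and the bar its SD (n = 3 per group), and each y axis starts at 0. In the first 7 panels every IEL SP library (orange) lies above every LP SP library (blue), and in the other 9 below.

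Receptors shared with regulatory and follicular helper cells went the same way. In the regulatory core list 8 of 19 tested members were lower (42.1%) and 1 higher (5.26%), with a median of -0.72. Ctla4, the inhibitory receptor that competes with CD28, had 252, 566 and 311 in IEL SP libraries, against 2938, 1891 and 2716 in LP SP libraries (-2.80 ± 0.28, adjusted p = 1.97e-05). Tnfrsf18, which encodes GITR, had 344, 407 and 324 in IEL SP libraries, against 1209, 1135 and 1152 in LP SP libraries (-1.70 ± 0.21, adjusted p = 0.000164). IEL SP libraries reached no more than 566 for Ctla4, against at least 1891 in LP SP. Tigit (-1.54), the growth factor gene Areg (-3.49), Il2ra (-1.03), Il10 (-3.45) and Folr4 (-2.25) were also called lower, while Nt5e, which encodes the ectoenzyme CD73, was called higher (0.66). Of 7 follicular helper genes tested, Icos and the repressor gene Bcl6 (-2.71, adjusted p = 0.00185) were lower, and the median was -0.60. Il2ra lost its call without IEL SP library 1 or 2 or LP SP library 2 or 3 (adjusted p 0.00959 to 0.117), as did Il10 without IEL SP library 1 or 3 or LP SP library 1, 2 or 3 (adjusted p 0.0146 to 0.113) and Folr4 without any 1 of the 6 libraries (adjusted p 0.0575 to 0.15). Nt5e lost its call without any 1 of the 6 libraries (adjusted p 0.0583 to 0.131).

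Genes of T helper effector programmes were lower in part. In the Th17 and IL-22 list 7 of 14 tested members were lower (50%), 0 were higher and the median was -1.37. Rora, a nuclear receptor that supports IL-17 and innate-like programmes, had 1776, 2017 and 1902 in IEL SP libraries, against 6268, 4339 and 4309 in LP SP libraries (-1.37 ± 0.15, adjusted p = 6.4e-05). Maf had 497, 619.7 and 479 in IEL SP libraries, against 1336, 1167 and 1646 in LP SP libraries (-1.37 ± 0.16, adjusted p = 9.42e-05). Irf4, a transcription factor induced by receptor signals, had 9.01, 17.0 and 32.2 in IEL SP libraries, against 128, 214 and 156 in LP SP libraries (-3.17 ± 0.48, adjusted p = 0.000793). In each the LP SP libraries were all above the IEL SP libraries. Batf (-1.17) and Stat3 (-0.80) fell as well. The cytokine gene Il22 had 39.0, 1.06 and 0 in IEL SP libraries, against 526, 76.9 and 154 in LP SP libraries (-5.41 ± 1.31, adjusted p = 0.0165), with LP SP library 1 far above LP SP libraries 2 and 3. Il17a and Il17f were below the filter. Il22 lost its call without IEL SP library 2 or 3 or LP SP library 1 (adjusted p 0.00252 to 0.0753). Neither edgeR nor DESeq2 called Il22.

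In the Th1 list 5 of 13 tested members were lower (38.5%), 0 higher, and the median was -0.64. Bhlhe40, which permits cytokine production by T cells, had 174, 238 and 188 in IEL SP libraries, against 2272, 3127 and 2590.5 in LP SP libraries (-3.73 ± 0.25, adjusted p = 4.26e-07). Il18r1, a chain of the IL-18 receptor, had 1169, 1589.6 and 1033 in IEL SP libraries, against 3622, 3168 and 4096 in LP SP libraries (-1.54 ± 0.28, adjusted p = 0.00269). The sites did not overlap for either of them, nor for Il18rap (-1.30) and Il12rb2 (-1.54), which were also called lower. The master regulator gene Tbx21 had 299, 251 and 321 in IEL SP libraries, against 176, 384 and 387 in LP SP libraries, overlapping, at -0.04, adjusted p = 0.962, and its sign varied with the fit from -0.41 to 0.15. Ifng stood at -0.85, adjusted p = 0.257 and Stat4 at -0.56, adjusted p = 0.0804.

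Receptors for cytokines that signal through the common gamma chain, with their signalling genes, had the second largest share of lower members, 10 of 18 (55.6%), against 1 higher (5.56%), and a median of -0.82. Il4ra had 111, 152 and 153 in IEL SP libraries, against 1037, 1137 and 1641 in LP SP libraries (-3.17 ± 0.25, adjusted p = 1.65e-06). Il21r had 656, 702 and 789.9 in IEL SP libraries, against 2472, 2786 and 2670.4 in LP SP libraries (-1.89 ± 0.14, adjusted p = 1.2e-06). The shared chain gene Il2rg had 984, 1057 and 831 in IEL SP libraries, against 1406, 2094 and 1861 in LP SP libraries (-0.89 ± 0.19, adjusted p = 0.00959). Each receptor was lower in every IEL SP library, and Il2rb, shared by the IL-2 and IL-15 receptors, was too (-1.32). Downstream, the suppressor gene Socs3 had 28.0, 57.5 and 24.6 in IEL SP libraries, against 627, 799 and 505 in LP SP libraries (-4.17 ± 0.62, adjusted p = 0.000642), and the kinase gene Pim1 had 143, 122 and 136 in IEL SP libraries, against 742, 828 and 835 in LP SP libraries (-2.57 ± 0.15, adjusted p = 1.16e-07). Stat5a (-1.50) and Stat5b (-0.85) were lower, whereas Cish, another STAT5 target, was called higher (0.79). Il7r (0.19, adjusted p = 0.581) and Il15ra (0.27, adjusted p = 0.637) did not pass. Cish lost its call without IEL SP library 1 or 3 or LP SP library 1, 2 or 3 (adjusted p 0.0416 to 0.148), as did Il2ra without IEL SP library 1 or 2 or LP SP library 2 or 3 (adjusted p 0.00959 to 0.117). Stat5b reached an adjusted p of 0.05 without IEL SP library 2, within a range of 0.0132 to 0.05 over the 6 such fits.

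IEL SP cells carried more RNA of several genes of epithelial adhesion. The list of integrins and epithelial adhesion molecules had 6 of 19 tested members higher (31.6%, against 4.75% of all genes), 1 lower (5.26%) and a median of 0.30. Itgae (ENSMUSG00000005947, chromosome 11, 73090583 to 73147446), the αE chain that binds E-cadherin, had 3602, 4698 and 3935 in IEL SP libraries, against 1654, 1650.2 and 1604 in LP SP libraries, a difference of 1.31 ± 0.12 (adjusted p = 8.12e-06). Its partner chain gene Itgb7 had 4069.7, 3998 and 3630.4 in IEL SP libraries, against 2586, 3340.0 and 2425 in LP SP libraries (0.50 ± 0.12, adjusted p = 0.0175). Amica1, which encodes the junctional adhesion molecule JAML, had 4641, 4489 and 5124 in IEL SP libraries, against 1903, 1459 and 1458 in LP SP libraries (1.57 ± 0.28, adjusted p = 0.00255). The highest LP SP library of Itgae, at 1654, stood below the lowest IEL SP library, at 3602. Crtam, a receptor of activated killer cells that binds a nectin-like protein, had 142, 104 and 135 in IEL SP libraries, against 21.1, 8.21 and 45.2 in LP SP libraries (2.59 ± 0.49, adjusted p = 0.00382). Cd226 (0.61), which binds nectins, and Cd99l2 (1.64) were called higher and Itgb3 lower (-1.39). Itga1 (1.05, adjusted p = 0.21) and Itga2 (1.06, adjusted p = 0.201), collagen-binding chains, did not pass. Itgb7 lost its call without IEL SP library 1 or 2 or LP SP library 1 or 3 (adjusted p 0.00283 to 0.0758), as did Cd99l2 without IEL SP library 2 or 3 or LP SP library 3 (adjusted p 0.0057 to 0.0854) and Cd226 without any 1 of the 6 libraries (adjusted p 0.0536 to 0.154). Itgb3 lost its call without IEL SP library 1 or 2 or LP SP library 1 or 3 (adjusted p 0.0368 to 0.0713).

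Of 12 tested NK-type and intraepithelial receptors, 5 were higher (41.7%) and 1 lower (8.33%), with a median of 0.65. Cd160, a receptor of intraepithelial lymphocytes, had 3331, 3599.8 and 3333 in IEL SP libraries, against 1754, 1735 and 1288 in LP SP libraries (1.12 ± 0.13, adjusted p = 8.16e-05). Cd244, which encodes 2B4, had 776, 928 and 879 in IEL SP libraries, against 233, 88.8 and 147 in LP SP libraries (2.56 ± 0.42, adjusted p = 0.00136). Cd7 had 1383, 1303 and 854 in IEL SP libraries, against 415, 677 and 312 in LP SP libraries (1.38 ± 0.39, adjusted p = 0.0382). All 3 were higher in every IEL SP library, with Crtam and Cd226 as the remaining members. The exception was Lilrb4, an inhibitory receptor, with 260.4, 257 and 207 in IEL SP libraries, against 1303, 1261 and 1423 in LP SP libraries (-2.46 ± 0.16, adjusted p = 2.94e-07), whose reads may be shared with the near copy Gp49a. Another 8 members of the list, with Klrk1, Klrc1 and Tyrobp among them, were below the filter. Cd7 lost its call without IEL SP library 1 or 2 or LP SP library 1 or 3 (adjusted p 0.024 to 0.141). The 8 markers of γδ T cells, which hosts can make and which share these receptors, summed to 903.6 to 1083 in IEL SP and 373 to 428 in LP SP, and their part in these genes was not tested. Most of the IEL SP sum was 1 gene, Tcrg-C4 (669.9, 859 and 716), and the δ chain gene Trdc was not matched. The same markers summed to 1517 to 1955 in IEL DP and 765 to 872 in LP DP. With epithelial and myeloid marker sums in the model, 1 of these members, Cd160, was called higher.

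The cytotoxicity list split evenly, with 3 of 19 tested members higher (15.8%), 3 lower (15.8%) and a median of 0.50. Gzma (ENSMUSG00000023132, chromosome 13, 113093825 to 113100981), which encodes granzyme A, had 24444, 30761 and 28891 in IEL SP libraries, against 10993, 6112 and 6878 in LP SP libraries (1.85 ± 0.29, adjusted p = 0.000958). Ccl5, a chemokine stored in granules of killer cells, had 22494, 20035 and 23359 in IEL SP libraries, against 8355, 6702 and 9475 in LP SP libraries (1.44 ± 0.12, adjusted p = 5.17e-06). Tnfsf10, which encodes the death ligand TRAIL, had 1135, 1075 and 1081 in IEL SP libraries, against 412, 516 and 520.4 in LP SP libraries (1.19 ± 0.12, adjusted p = 1.41e-05). These 3 were called in each fit without 1 library. The lower members encode granzyme inhibitors and a granule proteoglycan. Serpinb9, which inhibits granzyme B, had 637, 602 and 503 in IEL SP libraries, against 2111, 1594 and 2297 in LP SP libraries (-1.77 ± 0.17, adjusted p = 1.77e-05). Serpinb6b was lower (-0.81), and so was Srgn, the proteoglycan that packs granules (-0.65). Gzmb had 5257, 6952 and 7024 in IEL SP libraries, against 3518, 2833 and 4053 in LP SP libraries, with all IEL SP libraries above all LP SP libraries, but at 0.89 ± 0.35 (adjusted p = 0.129) it did not pass, nor did Prf1 (0.70, adjusted p = 0.498) or Nkg7 (0.63, adjusted p = 0.202). With the 6 SP libraries alone Gzmb was called. Among 14 inhibitory receptors, 3 were higher (21.4%) and 3 lower (21.4%), with a median of 0.41. Cd160, Cd244 and Lag3 (1.87) were higher and Ctla4, Tigit and Lilrb4 lower, while Pdcd1 did not pass (-0.60, adjusted p = 0.772). Lag3 lost its call without IEL SP library 2 or 3 or LP SP library 1 or 2 (adjusted p 0.00424 to 0.0831).

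Genes of tissue residency went in both directions. Of 20 tested, 2 were higher (10%), 6 lower (30.0%), and the median was -0.50. Cd69, which holds T cells in tissue and is also an early activation gene, had 1239, 2194 and 1111 in IEL SP libraries, against 4814, 6063 and 4909.7 in LP SP libraries (-1.86 ± 0.25, adjusted p = 0.000338). Rgs1, which dampens chemokine receptor signals, had 6227, 8866 and 7455 in IEL SP libraries, against 24238, 19759 and 23552 in LP SP libraries (-1.59 ± 0.14, adjusted p = 5.03e-06). Gpr183, a receptor for oxysterols, had 146, 187 and 217 in IEL SP libraries, against 535, 602 and 564 in LP SP libraries (-1.64 ± 0.27, adjusted p = 0.00132). Each was lower in every IEL SP library, and Rgs2 fell as well (-1.40). Runx3, which opposes ThPOK and promotes Itgae, had 1477, 1247 and 1484 in IEL SP libraries, against 1012, 725 and 1009.5 in LP SP libraries (0.63 ± 0.17, adjusted p = 0.0326), higher in every IEL SP library. Prdm1 (-1.03) and Klf3 (-1.58) were called lower. The egress regulators Klf2 (17.0, 25.6 and 20.4 in IEL SP libraries, against 134, 103 and 73.0 in LP SP libraries) and S1pr1 (49.1, 11.7 and 17.0 in IEL SP libraries, against 60.9, 94.8 and 60.3 in LP SP libraries) did not overlap between the sites but did not pass, at -2.22, adjusted p = 0.0876 and -1.66, adjusted p = 0.235. Klf2 was called with the 6 SP libraries alone and by edgeR and DESeq2. Runx3 lost its call without IEL SP library 1 or 3 or LP SP library 2 (adjusted p 0.0395 to 0.118), as did Prdm1 without IEL SP library 1 or 3 or LP SP library 1 or 3 (adjusted p 0.00514 to 0.103) and Klf3 without any 1 of the 6 libraries (adjusted p 0.056 to 0.116).

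Of 20 chemokine and homing receptors tested, 1 was higher (5.0%) and 6 were lower (30.0%), with a median of -0.14. Ccr9, which draws cells to the small intestine, had 1702, 2201 and 2030.2 in IEL SP libraries, against 1252, 1414 and 1424 in LP SP libraries, a difference of 0.53 ± 0.19 (adjusted p = 0.0894) that did not pass. Ptger4, a prostaglandin E2 receptor, had 661, 581 and 466 in IEL SP libraries, against 1238, 1040.4 and 1187 in LP SP libraries (-1.03 ± 0.16, adjusted p = 0.000998). Ccr4 was lower (-2.22, adjusted p = 0.00867), along with Gpr183 above, Ccr2 (-1.35) and the leukotriene receptor gene Ltb4r1 (-2.92). The member called higher was Itgb7. Ccr4, Ccr2 and Ltb4r1 were not called with the 6 SP libraries alone. Ccr2 lost its call without IEL SP library 1 or 3 or LP SP library 2 or 3 (adjusted p 0.0189 to 0.12), as did Ltb4r1 without IEL SP library 1 or 3 or LP SP library 1, 2 or 3 (adjusted p 0.02 to 0.163).

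**Figure D3:**
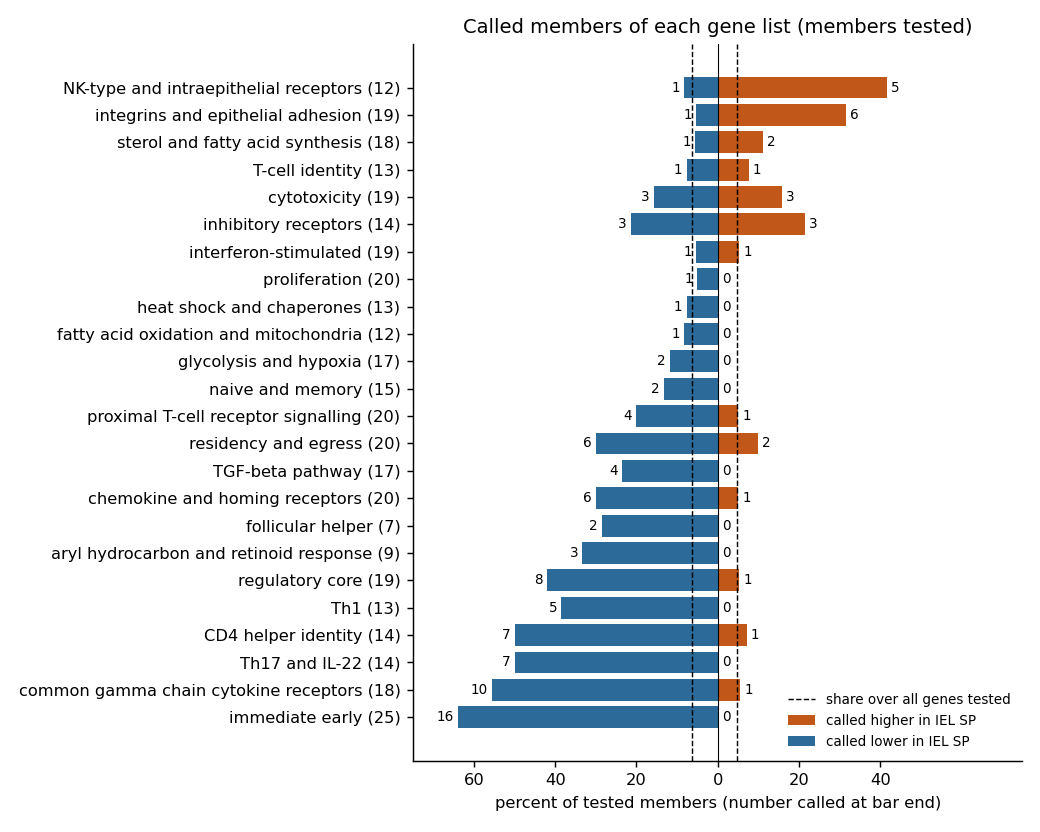
Share of tested members called in each of 24 lists of T-cell genes, with higher in IEL SP to the right (orange) and lower to the left (blue). Numbers at the bars count the members, list sizes stand in brackets, and dashed lines give the shares over all genes tested (4.75% higher, 6.26% lower). The NK-type and adhesion lists reach furthest right and the immediate early list furthest left.

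In the TGF-beta pathway, which induces αE and CD8α in gut T cells, 4 of 17 tested members were lower (23.5%), 0 higher, with a median of -0.09. Tgif1, a corepressor of SMAD proteins, had 92.1, 38.3 and 58.5 in IEL SP libraries, against 605, 1105 and 1036 in LP SP libraries (-3.88 ± 0.33, adjusted p = 4.44e-06). Skil, a SMAD inhibitor, had 4186, 4430.3 and 3642 in IEL SP libraries, against 11210.2, 9919 and 13729 in LP SP libraries (-1.50 ± 0.11, adjusted p = 1.2e-06). Smad7, the inhibitory SMAD, had 732, 733 and 616 in IEL SP libraries, against 1391, 1500.2 and 1365 in LP SP libraries (-1.04 ± 0.12, adjusted p = 6.76e-05). Tgif1, Skil and Smad7 were thus lower in every IEL SP library. The list members Ski, Pmepa1, Smurf1 and Smurf2 were not called. The receptors Tgfbr1 (0.75, adjusted p = 0.0733) and Tgfbr2 (-0.50, adjusted p = 0.242) did not pass. The ligand gene Tgfb1 was called lower (-1.58). In the aryl hydrocarbon and retinoid list 3 of 9 were lower (33.3%), namely Nfe2l2 (-0.94), Arnt (-0.88) and Tiparp (-0.90), with a median of -0.86, while Ahr itself did not pass (-0.58, adjusted p = 0.249). Tgfb1 lost its call without IEL SP library 1 or 2 or LP SP library 1, 2 or 3 (adjusted p 0.00521 to 0.123), as did Tiparp without IEL SP library 1, 2 or 3 or LP SP library 3 (adjusted p 0.0218 to 0.126).

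Few genes of proximal T-cell receptor signalling were called. Of 20 tested, 1 was higher (5.0%) and 4 were lower (20%), with a median of -0.05. Ptpn22, a phosphatase that restrains the receptor, had 962, 1246 and 1295 in IEL SP libraries, against 2069, 2580.2 and 2192 in LP SP libraries (-0.97 ± 0.17, adjusted p = 0.00265), lower in every IEL SP library. The ubiquitin ligase gene Cblb (-1.10) and Cd2 (-0.59) were also called lower, and Zap70 (-0.25, adjusted p = 0.257) and Lat (-0.22, adjusted p = 0.477) did not pass. Of 15 naive and memory genes, Satb1 and Foxo1 (-1.15, adjusted p = 0.00782) were lower (13.3%), 0 were higher and the median was -0.53. Cblb lost its call without IEL SP library 1 or LP SP library 1 (adjusted p 0.0112 to 0.0597), as did Cd2 without IEL SP library 2 or 3 or LP SP library 2 or 3 (adjusted p 0.0293 to 0.114).

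General programmes of the cell showed few calls. Of 13 heat shock and chaperone genes, which dissociation can also induce, Hspa5 was lower (7.69%), with 4946, 6788 and 6021 in IEL SP libraries, against 11476, 10899 and 11663 in LP SP libraries (-0.95 ± 0.12, adjusted p = 0.000133). Hspa1a did not pass (-0.54, adjusted p = 0.33), and the list's median was -0.21. Of 17 glycolysis and hypoxia genes 2 were lower (11.8%), with a median of -0.27. Hk2, a hexokinase, had 180.2, 246 and 71.3 in IEL SP libraries, against 743, 1009 and 1094 in LP SP libraries (-2.66 ± 0.39, adjusted p = 0.000623), and Hif1a, the hypoxia regulator, had 272, 353 and 181 in IEL SP libraries, against 1100.2, 830.0 and 768 in LP SP libraries (-1.77 ± 0.29, adjusted p = 0.00143). Both were lower in every IEL SP library, and Gapdh did not pass (-0.78, adjusted p = 0.0628). Of 18 sterol and fatty acid synthesis genes 2 were higher (11.1%) and 1 lower (5.56%), with a median of 0.41. Insig1, which restrains cholesterol synthesis, had 1106, 874 and 689 in IEL SP libraries, against 2335, 1758 and 2426 in LP SP libraries (-1.30 ± 0.25, adjusted p = 0.00376). Scd2, described above, was among the higher members. Of 12 genes of fatty acid oxidation, Ppard was called lower (-1.84, 8.33%), with a median of 0.10. Of 20 proliferation genes, Mcm5 was called lower (-0.70, 5.0%), the median was 0.02 and Mki67 did not pass (0.69, adjusted p = 0.561). Of 19 interferon-stimulated genes, Rtp4 was higher (1.03 ± 0.21, adjusted p = 0.00536) and Isg15 lower (adjusted p = 0.00288), 5.26% each, with a median of -0.08. Ppard lost its call without IEL SP library 1 or 3 or LP SP library 1 or 3 (adjusted p 0.0183 to 0.107), as did Mcm5 without IEL SP library 1, 2 or 3 or LP SP library 2 or 3 (adjusted p 0.0203 to 0.107).

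The same sites were compared in DP cells, which come from other libraries. Both comparisons came from 1 fit with a shared estimate of each gene's spread, so calls in SP and DP cells were not independent. There 634 genes were higher in IEL DP (4.55%) and 839 lower (6.03%). Of the 661 genes higher in IEL SP, 630 (95.3%) had the same sign in DP cells and 225 (34.0%) were called higher there, with median differences of 1.06 in SP and 0.66 in DP cells. Of the 872 genes lower in IEL SP, 845 (96.9%) had the same sign and 552 (63.3%) were called lower, with medians of -1.16 and -0.85. These genes, and the largest differences below, were chosen by their difference in SP cells. That choice alone favours larger differences in SP than in DP cells. The share with the same sign over all genes tested is not given here. Cells of both kinds may come from the same animals, which the labels do not say.

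Of the 15 largest decreases in SP cells 13 were called lower in DP cells too, and of the 15 largest increases 2 were called higher. The decreases that did not pass in DP cells were Cd83 (-2.26, adjusted p = 0.159) and Il1r2 (-1.32, adjusted p = 0.377). Icos had 268, 248 and 242 in IEL DP libraries, against 2698, 2722 and 2861 in LP DP libraries, a difference of -3.44 ± 0.12 (adjusted p = 1.33e-09). Tnfaip3 had 742, 1083 and 1027 in IEL DP libraries, against 9293, 9591 and 9338 in LP DP libraries (-3.32 ± 0.22, adjusted p = 4.41e-07). Ramp3 had 1.07, 1.65 and 2.79 in IEL DP libraries, against 499, 381 and 291 in LP DP libraries (-7.12 ± 0.28, adjusted p = 5.86e-09). In these 3 the DP libraries of the sites did not overlap. Of the genes higher in IEL SP, Ccl5 had 43561, 38066 and 37338 in IEL DP libraries, against 37569.9, 28274 and 32654 in LP DP libraries, a difference of 0.28 ± 0.12 (adjusted p = 0.171) that did not pass. Gzma was at 0.74 ± 0.29 (adjusted p = 0.122) in DP cells and Amica1 at 0.34 ± 0.28 (adjusted p = 0.484). Tnfsf10 was called higher in IEL DP as well, at 1.05 ± 0.12 (adjusted p = 5.65e-05), and so was Itgae, at 0.62 ± 0.12 (adjusted p = 0.00456). For Ccl5, every DP library of either site lay above every IEL SP library, and the LP SP libraries were the lowest of the 12.

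The difference between the site effects was tested directly, as SP minus DP. In limma 0 genes were called (0.0% of those tested), with 888 at an unadjusted p under 0.05 (6.38%) and a lowest adjusted p of 0.114. In edgeR 0 genes were called, with 906 at an unadjusted p under 0.05, and in DESeq2 31 were, 13 with a positive and 18 with a negative difference. DESeq2's 31 included Ccl5 (difference of the log2 differences 1.16, adjusted p = 4.33e-05), Amica1 (1.23, adjusted p = 0.00632), Cd160 (0.69, adjusted p = 0.0453) and Itgae (0.70, adjusted p = 0.0472). In limma the same 4 had adjusted p-values of 0.114, 0.65, 0.582 and 0.573 in that order. A site effect of different size in SP and DP cells was therefore not shown by limma or edgeR.

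**Figure D4:**
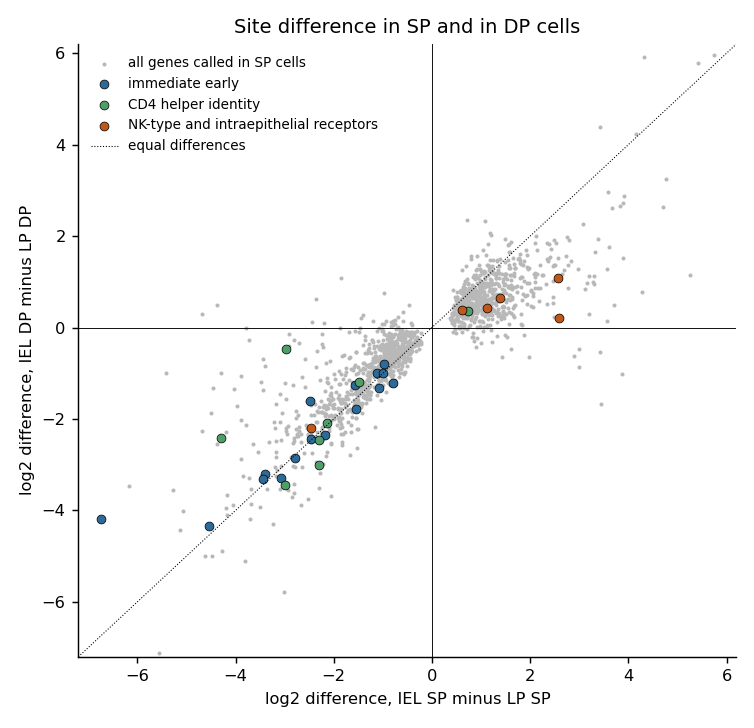
Log2 difference between the sites in SP cells (x axis, IEL SP minus LP SP) and in DP cells (y axis, IEL DP minus LP DP) for the 1533 genes called in SP cells. Coloured points are called members of 3 lists, and the dotted line marks equal differences. Most immediate early members lie near the line in the lower left, and the NK-type members that are higher in IEL SP lie below it.

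Epithelial transcripts were present in both groups and higher in IEL SP. The 90 matched epithelial markers summed to 1461 to 2786 in IEL SP and 898.6 to 1276 in LP SP, and 18 of the 90 passed the filter, with 4 called higher and 0 lower. All 4 are enterocyte genes, from 7 tested of 41, whose list summed to 565 to 1635 in IEL SP and 193 to 322 in LP SP. Reg3b, an antimicrobial lectin, had 413, 52.2 and 14.4 in IEL SP libraries, against 0, 0 and 1.16 in LP SP libraries (5.75 ± 1.16, adjusted p = 0.00548). Its relative Reg3g had 649, 88.4 and 19.5 in IEL SP libraries, against 3.51, 0 and 2.32 in LP SP libraries (5.43 ± 1.64, adjusted p = 0.0493). Fabp2, the intestinal fatty acid binding protein, had 35.0, 36.2 and 39.9 in IEL SP libraries, against 5.86, 0 and 0 in LP SP libraries (4.32 ± 1.12, adjusted p = 0.0242). In the first 2 IEL SP library 1 was far above the others, and in Fabp2 the 3 IEL SP libraries were alike. Khk, which encodes a fructose kinase, was the fourth (1.60). Other defining enterocyte genes were at or near 0, with Anpep at 0 in all 6 libraries and Apoa1 at 55.1, 5.32 and 0 in IEL SP libraries, against 0, 0 and 0 in LP SP libraries. Of the pan-epithelial genes 0 of 8 tested were called by limma, edgeR or DESeq2, and 0 had an unadjusted p under 0.05. Epcam had 36.0, 44.7 and 104 in IEL SP libraries, against 65.6, 25.4 and 88.1 in LP SP libraries, and Krt8 had 77.1, 17.0 and 1.70 in IEL SP libraries, against 0, 0.75 and 0 in LP SP libraries. Of 3 tested secretory cell genes 0 were called and 0 had an unadjusted p under 0.05 by the same tools, and the list summed to 125.6 to 160.2 in IEL SP and 134.7 to 208 in LP SP. Khk lost its call without IEL SP library 1 or LP SP library 1 (adjusted p 0.0157 to 0.0701), as did Fabp2 without IEL SP library 1, 2 or 3 or LP SP library 2 or 3 (adjusted p 0.0132 to 0.0852) and Reg3g without IEL SP library 1 or 2 or LP SP library 1, 2 or 3 (adjusted p 0.0397 to 0.187). Neither edgeR nor DESeq2 called Fabp2.

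Myeloid and antigen-presenting transcripts were low at both sites. The 28 myeloid markers summed to 1213 to 1475 in IEL SP and 1193 to 2019 in LP SP. Of 12 tested, Lyz2 was called lower and Cst3 higher, and the median was -0.19. Lyz2, the macrophage lysozyme, had 0, 3.19 and 0.85 in IEL SP libraries, against 49.2, 315 and 26.7 in LP SP libraries (-5.26 ± 1.49, adjusted p = 0.0366), with LP SP library 2 above the others. Cst3, a protease inhibitor that many cells make, had 704, 599 and 633 in IEL SP libraries, against 527, 492 and 401 in LP SP libraries (0.45 ± 0.13, adjusted p = 0.0435). The defining genes S100a9 and Cd209a were at 0 in all 6 libraries, and Csf1r had 0, 0 and 0 in IEL SP libraries, against 0, 32.1 and 2.32 in LP SP libraries. Of 6 tested genes of MHC class II presentation, Cd74, the invariant chain, was lower, with 45.1, 50.04 and 59.4 in IEL SP libraries, against 265, 506 and 134 in LP SP libraries (-2.34 ± 0.52, adjusted p = 0.0103), and the list's median was -2.19. H2-Ab1 had 93.1, 68.1 and 15.3 in IEL SP libraries, against 251, 329 and 98.5 in LP SP libraries but did not pass (-2.10, adjusted p = 0.141). The 8 genes of that list summed to 259 to 555 in IEL SP and 607 to 1614 in LP SP. Lyz2 lost its call without IEL SP library 1, 2 or 3 or LP SP library 1 or 2 (adjusted p 0.047 to 0.132), as did Cst3 without IEL SP library 1, 2 or 3 or LP SP library 2 or 3 (adjusted p 0.037 to 0.163). Over 15 libraries edgeR did not call Cst3.

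**Figure D5:**
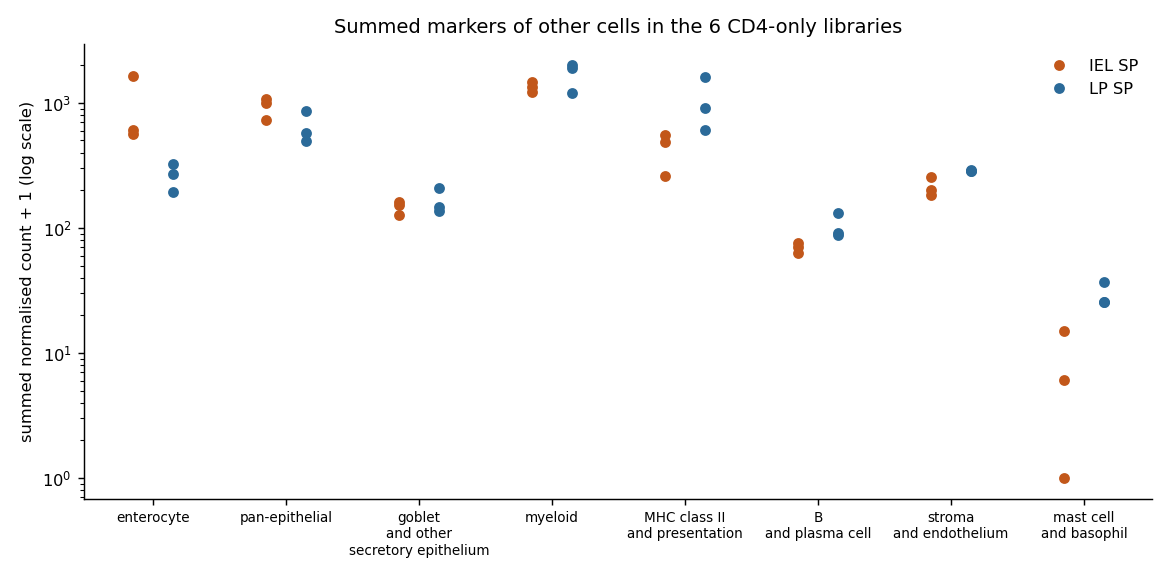
Summed normalised counts, plus 1 and on a log axis, of 8 marker lists of other cells in the 6 SP libraries. Each point is 1 library. The enterocyte sum is higher in IEL SP (565 to 1635, against 193 to 322 in LP SP) and the MHC class II sum lower (259 to 555, against 607 to 1614), while the secretory and myeloid sums overlap.

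Markers of other host cells were sparse. The 13 B and plasma cell genes summed to 61.7 to 74.7 in IEL SP and 86.6 to 130 in LP SP, with 0 of 3 tested called by limma, edgeR or DESeq2 and 0 at an unadjusted p under 0.05. Of stroma and endothelium 0 of 4 tested were called by limma, edgeR or DESeq2 and 1 had an unadjusted p under 0.05, with sums of 181 to 253 in IEL SP and 283 to 287 in LP SP. No mast cell or basophil gene passed the filter. The 11 innate lymphoid and NK cell markers summed to 541 to 614 in IEL SP and 425 to 929 in LP SP. Of 6 tested, Hpgds, a prostaglandin D2 synthase, was called higher (1.02) and Il22 lower, and Ncr1 was at 0 in all 6 libraries. Of 4 γδ T-cell genes tested Tcrg-C4, a constant region of the receptor's γ chain, was higher, with 669.9, 859 and 716 in IEL SP libraries, against 159, 207 and 161 in LP SP libraries (2.08 ± 0.39, adjusted p = 0.00352). The list of conventional CD8 T cells, Cd8a and Cd8b1, summed to 68.2 to 162 in IEL SP and 89.3 to 108 in LP SP, and 0 of its 2 genes were called by limma, edgeR or DESeq2 or had an unadjusted p under 0.05. Trdv4, a δ chain segment, did not pass (0.06, adjusted p = 0.923). Hpgds lost its call without IEL SP library 1, 2 or 3 or LP SP library 1 or 2 (adjusted p 0.0177 to 0.0696).

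Taken once each, the 332 tested members of the 24 T-cell lists held 21 higher (6.33%) and 84 lower genes (25.3%), with a median of -0.22. A fit with the epithelial and the myeloid sums of each library as covariates was compared with the one without. It called 491 genes, 137 higher and 354 lower, and 108 of the 661 higher and 345 of the 872 lower genes were among them. The median standard error was 0.41 with the covariates and 0.297 without them, and 0 genes of the carry-over lists were called. The covariates sum the epithelial and myeloid members of those lists, so the loss of their calls was largely built into the fit. The epithelial sum did not overlap between IEL SP (1461 to 2786) and LP SP (898.6 to 1276), so that covariate largely follows the site. Of the T-cell list members 8 were called higher and 50 lower, against 21 and 84. Itgae, Ccl5, Gzma, Tnfsf10, Cd160 and Amica1 kept their calls there, as did Icos, Cd28, Ctla4, Tnfrsf4, Tnfaip3, Nfkbia and Dusp1. Crtam (adjusted p = 0.0802), Cd244 (0.0687), Scd2 (0.111), Cited4 (0.191) and Fos (0.0849) lost theirs, as did Cxcl10, Cd83, Il1r2 and Sgtb above. This fit cannot decide the part of other cells in the results, and no other test of it was made.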

How the data were processed

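RNA was measured by sequencing of sorted cells, with Nextera XT libraries per the labels. The values are a read signal per gene, raw counts times 1 factor per library, that the authors deposited; TopHat, HTSeq and the mm10 build are named in the submitters' processing notes, and how the factors were computed is not given in the sources used here. All values of the 18 libraries were whole multiples of 1 step per library within 0.1 of a step (100.0%), so whole reads were recovered for count tests. Over these, edgeR called 1507 genes and DESeq2 2066. The kit does not mark strand, so overlapping and antisense genes cannot be told apart.

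Genes with a value of at least 10 in 3 or more of the 6 IEL SP and LP SP libraries were tested on log2(value + 1), which understates the change of low genes, in limma 3.58.1 (R 4.3.3) with Benjamini-Hochberg adjustment over all 13924. The fit used 15 libraries in 5 groups. IEL TR was left out because its common dispersion was 0.433, against 0.0733 to 0.0983 in the other groups. The difference of the site effect between SP and DP was a contrast of the same fit. Errors are standard errors. Alternatives, given in the closing section, included edgeR 4.0.16, DESeq2 1.42.0, other scalings, filters and added constants, a replicate block, marker sums as covariates and leaving out each library. With 3 against 3 libraries, a permutation of labels cannot give a p below 0.10, so no such test is given for single genes.

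Coordinates came from GENCODE M21 (GRCm38, the mm10 build), which held 36639 of the 38392 gene IDs. Of 635 entries of 24 T-cell and 11 carry-over lists, 631 were matched by symbol. The comparison and the lists were chosen with earlier results of these data known. Named genes were the 15 largest called differences each way whose groups did not overlap and whose higher group averaged 50 or more (no predicted or small RNA genes, ribosomal pseudogenes, receptor segments or carry-over markers), the called members among the 5 smallest p of each list, 16 regulators and markers given whatever their result, and list members where their list is described. Some items that this rule names are not reported here.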

Additional observations from a re-analysis of the deposited data

How the results depend on the processing

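The count of 1533 called genes was within 1.5 times of that value with the 6 SP libraries alone (1024), edgeR over 15 libraries (1507), DESeq2 (2066), equal totals (1506), TMM factors (1555), quantile normalization (1633), added constants of 0.5 (1515) and 8 (1607), no filter (1232), a filter at 50 (1557) and library weights (1539). It was 890 with all 18 libraries, 977 with edgeR over the 6 SP libraries and 491 with the epithelial and myeloid sums as covariates, and 996 to 1271 without 1 library. The difference of the site effect gave 31 calls with DESeq2, 1 with a replicate block and 1 with the covariates, and 0 in each fit without 1 library. T-cell list members called were 58 with the covariates and 85 to 94 without 1 library, against 105. The covariates are sums of epithelial and myeloid members of the carry-over lists. Carry-over list members called were 5 with all 18 libraries, 5 with a filter at 50 and 0 with the covariates (8 at an unadjusted p under 0.05), and 4 to 7 without 1 library, against 10. The cause was not tested, apart from the standard error, whose median was 0.41 with the covariates and 0.297 without them. Of 149 named genes tested, 77 kept their side of the threshold with the covariates, 109 with all 18 libraries, 122 with the 6 SP libraries and 135 with edgeR, and no called gene changed sign. Over 15 libraries edgeR did not call Mmp11, Dtwd1, Det1, Tefm, Tgfb1, Fabp2, Cst3, Il22, Ltb4r1, Cd226, Cd6, Lag3 and Cish, and DESeq2 did not call Fabp2 and Il22. Other scalings moved the median difference by at most 0.062.

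Same-numbered IEL SP and LP SP libraries had correlations of their deviations of 0.0349, 0.0838 and 0.0681, so the numbers were not taken as pairs. With the replicate number as a block, 1753 genes were called over 15 libraries and 767 over the 6 SP libraries, where the block takes degrees of freedom. Each library correlated best with the library of its own number, a hint from the data and not from the design.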

Other observations

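Of the genes called in SP cells, 0 of those higher and 2 of those lower in IEL SP were called the opposite way in IEL DP. They are Ece1, which encodes endothelin-converting enzyme, and Frmd4b, which encodes a scaffold protein, both named after their values were seen. Ece1 had 172, 209.8 and 204 in IEL SP libraries, against 319, 413 and 429 in LP SP libraries, a log2 difference of -0.97 ± 0.22 (adjusted p = 0.0115). In DP cells Ece1 had 193, 298 and 258 in IEL DP libraries, against 194, 116 and 134 in LP DP libraries, a difference of 0.77 ± 0.22 (adjusted p = 0.0407). Frmd4b had 329, 373 and 368 in IEL SP libraries, against 482, 489.6 and 505 in LP SP libraries, a difference of -0.46 ± 0.13 (adjusted p = 0.0341). In DP cells it had 670.0, 573 and 638 in IEL DP libraries, against 462, 493 and 389.9 in LP DP libraries, a difference of 0.49 ± 0.13 (adjusted p = 0.0286). DESeq2 called the difference of the site effect for both genes, and limma called it for neither (adjusted p = 0.265 for Ece1 and 0.313 for Frmd4b).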
